A study of Mus musculus with 24 samples.

Results

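The nuclear-encoded respiratory chain genes are taken here as the genes whose symbols begin with Nduf, Sdh, Uqcr, Cox4 to Cox8 or Atp5 in the forms used for subunits of complexes I to V. Of 79 such names, 76 were selected on their reads, with 5 or more in no fewer than 6 libraries of either genotype. They stand among 15493 genes that passed this filter, of 53465 genes listed. Since read counts chose them, their presence in these cells is not a finding. By complex, 35 encode subunits of complex I, 4 of complex II, 8 of complex III, 13 of complex IV (with Ndufa4, a cytochrome c oxidase subunit despite its name) and 15 of complex V. The last, Atp5s, carries the name but was not counted as a subunit. The rule leaves out Cox4i1, Cox4i2, Cyc1 and other subunits with differently formed names, which are given separately.

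Each library was made from CD31-sorted brain endothelial cells of 1 mouse on a C57BL/6J background, kept in 12 h light and 12 h darkness and fed freely. Control mice were Bmal1fl/fl, so that both alleles of the clock gene Bmal1 (listed as Arntl) were floxed in every mouse of the study. Mutant mice were Bmal1fl/fl; Tie2cre, in which Cre is driven by the Tie2 promoter, active in endothelial cells and also in some blood-forming cells, so that deletion is not limited to brain vessels. For each genotype 2 mice were taken every 4 h from ZT2 to ZT22 (hours after lights on), which gave 12 control and 12 mutant libraries. The mice's ages were not given in the sources used here.

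The respiratory chain passes electrons from NADH (complex I) and succinate (complex II) through complex III to oxygen at complex IV, and complex V, the ATP synthase, uses the proton gradient this builds to make ATP. Most subunits are encoded in the nucleus and imported, while a small set of core subunits of complexes I, III, IV and V is encoded by mitochondrial DNA. Endothelial cells are known for a large use of glycolysis, and brain endothelium for a comparatively rich supply of mitochondria.

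Promoters of the members are shown because clock proteins bind E-boxes, and because NRF1 and ETS factors of the GABP type are known regulators of respiratory genes. In the RefSeq set of the GRCm38.p6 build, 66 of the 76 members had a promoter window (250 bases before to 50 bases after a start), with 71 windows in all. The palindromic E-box CACGTG lay in 7 of the 71 windows (9.86%), against 7.15% of all 32851 windows of the same length. It was found for Atp5f1, Atp5g1, Atp5g3, Atp5l, Ndufa7 and Ndufv1. The palindromic TGCGCA, part of the NRF1 motif, lay in 26.8% of the members' windows and 7.76% of all windows. The ETS core CCGGAAG, searched on both strands, lay in 22.5% and 8.86%. A match describes letters in a window and not a bound site. The 250 bases before the start are printed for the 3 members with the smallest p-values among the genotype and the ZT6 and ZT18 differences below (Atp5k for the former), 5′ to 3′ on the gene's strand, with a match to any of these motifs in capitals. They are Atp5g1 (chr11:96075632-96075881, minus strand), Ndufc2 (chr7:97399753-97400002, plus strand) and Atp5k (chr5:108434400-108434649, minus strand).
Atp5g1: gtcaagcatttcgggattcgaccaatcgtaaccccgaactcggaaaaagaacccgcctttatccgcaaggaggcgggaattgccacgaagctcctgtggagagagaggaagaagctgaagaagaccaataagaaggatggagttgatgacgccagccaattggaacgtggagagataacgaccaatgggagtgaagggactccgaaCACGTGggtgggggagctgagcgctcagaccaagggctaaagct
Ndufc2: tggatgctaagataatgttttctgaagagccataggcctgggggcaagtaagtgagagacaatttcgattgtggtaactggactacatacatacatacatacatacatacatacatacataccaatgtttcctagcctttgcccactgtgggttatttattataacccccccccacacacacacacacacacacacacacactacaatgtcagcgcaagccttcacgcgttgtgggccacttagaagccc
Atp5k: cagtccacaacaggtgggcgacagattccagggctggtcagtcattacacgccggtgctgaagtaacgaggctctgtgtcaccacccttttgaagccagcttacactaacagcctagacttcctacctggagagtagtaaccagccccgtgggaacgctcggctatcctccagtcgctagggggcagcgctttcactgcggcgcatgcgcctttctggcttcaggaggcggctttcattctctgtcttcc
The capitals in Atp5g1 are an E-box 44 bases before the start, and neither of the other stretches holds any of these letters. The window of Atp5k has an ETS core that lies at least partly in the 50 bases after the start, which are not printed.

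Deposited totals lay between 6136404 and 6648311 reads per library. The label of the sort fits its markers, with 67593 to 111087 reads over 10 endothelial markers in each library and none of the 10 at 0 in any library. Reads of other brain cell types were present as well, and they differed between time points as given below. The count of Arntl covers the whole gene and not the floxed part alone, so it does not check the deletion. Controls held 1 to 468 reads (median 166.5) and mutants 81 to 354 (median 242.5), while the clock genes Nr1d1, Nr1d2 and Per3 were lower and Cry1 was higher in mutants (quasi-likelihood test of edgeR).

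The 76 genes together took 0.277% to 0.515% of all reads, a small part of each library. Controls held a mean share of 0.347% (SD 0.0598, n = 12) and mutants 0.326% (SD 0.0261, n = 12). By time point, the control mice held 0.376% with 0.342% (ZT2), 0.331% with 0.352% (ZT6), 0.330% with 0.357% (ZT10), 0.296% with 0.281% (ZT14), 0.340% with 0.346% (ZT18) and 0.296% with 0.515% (ZT22). The mutant mice held 0.317% with 0.324%, 0.277% with 0.310%, 0.296% with 0.376%, 0.327% with 0.345%, 0.330% with 0.349%, then 0.346% with 0.321%, in the same order of times. The genotypes overlapped, and one library, control ZT22 replicate 2, lay above the other 23, whose highest share was 0.376%. Without it, the control mean was 0.331% (SD 0.0293, n = 11). In bulk samples, fewer cells of a type and less RNA per cell cannot be told apart, and this holds for every share and read count here.

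**Figure D1:**
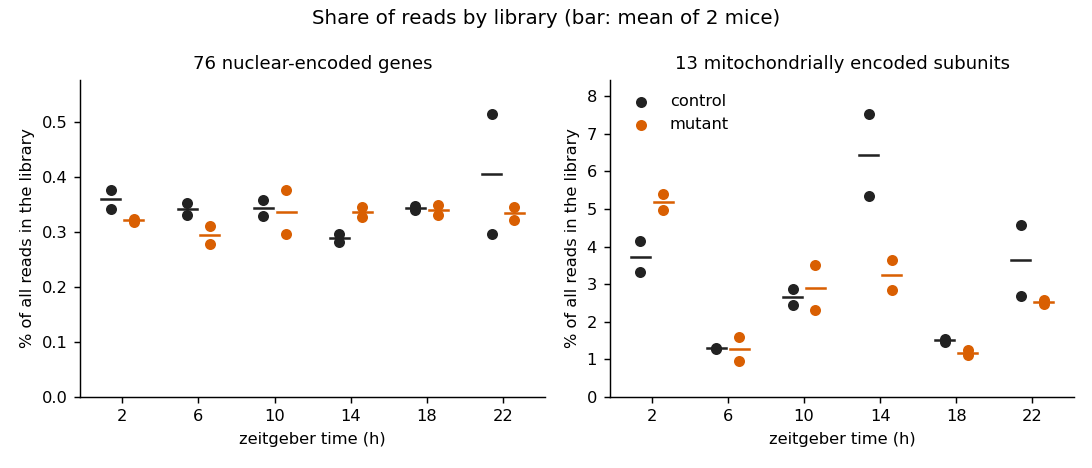
Share of all reads (percent) against zeitgeber time (h) for the 76 nuclear-encoded genes (left) and the 13 mitochondrially encoded subunits (right), with 1 point per mouse and a bar at the mean of 2 mice. The nuclear share stays between 0.277% and 0.376% except in 1 control library at ZT22 (0.515%), while the mitochondrial share is 0.963% to 1.59% at ZT6 and ZT18 and 2.31% to 7.54% at the other times.

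Levels of single genes were compared per kilobase of exon, as mean reads over the 12 control libraries after scaling of the libraries (TMM). The median member had 121.7 reads per kb, against 25.6 over all tested genes with an annotated length. Median levels per kb were 94.9 for complex I, 98.2 for complex II, 166 for complex III, 126 for complex IV and 135 for complex V. With the longest annotated transcript as length, the medians were 177.5 for the members and 33.59 for all genes. By complex they were then 164.4 (I), 125.8 (II), 206.2 (III), 180.6 (IV) and 230.8 (V), so the order of the complexes rests on the length used. Of the 10 members with the highest level per kb in controls, 9 were among the top 10 in mutants.

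Within complex V, the peripheral stalk subunit gene Atp5h led with 647.2 reads per kb (SD 143.4), beside the catalytic-head gene Atp5a1 at 618.7 reads per kb. By the longest transcript Atp5j (1120.5), also a stalk gene, and Atp5h (1106.3) were highest, and Atp5a1 had 725.4. The 3 genes for the identical c subunit of the membrane ring differed, with 91.21 reads per kb for Atp5g3, 38.39 for Atp5g2 and 20.19 for Atp5g1, the lowest of the complex (230.8, 85.39 and 21.03 by the longest transcript, with Atp5g1 again lowest). Atp5g1 has an exon union of 4912 bases against 1675 for Atp5g2, and more deposited reads on average over all 24 libraries (98.1 against 65.8). Both lengths put Atp5g1 below Atp5g2, while reads not divided by length put it above. In complex III, Uqcrb, the gene of a small subunit beside cytochrome b, had 639 reads per kb (SD 209.7), which with its SD does not stand apart from Atp5h. Uqcrc1, which encodes a core protein facing the matrix, had 117 reads per kb, the lowest of complex III by exon union, but 195.6 by its longest transcript, by which Uqcrfs1 was lowest (134.1).

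In complex II, the flavoprotein gene Sdha had 298.2 reads per kb (SD 47.04) and stood above the iron-sulfur subunit gene Sdhb (79.1, SD 22.12) and the membrane anchor gene Sdhc (88.46, SD 27.87), which overlapped each other within their spread. By the longest transcript Sdha had 424.2, Sdhb 143.8 and Sdhc 90.66, so the order of the latter pair rests on the length used. In complex I, the accessory subunit gene Ndufa2 had 324.6 reads per kb (SD 58.58) and Ndufb2 15.57 (SD 7.373). Exons of Ndufb2 overlap those of Braf on the opposite strand. Its exon union is 5628 bases long, so its level per kb depends on which exons are used.

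Several complex IV subunits have a ubiquitous gene and a second one, known from heart and skeletal muscle or from testis. The ubiquitous gene was the higher per kb in every pair. Cox8a had 381.6 reads per kb in controls and Cox8b 53.07 (SD 83.05, an SD larger than the mean). Cox7a2 had 126.1 and Cox7a1 16.86, and Cox6b1 had 257 and Cox6b2, the testis form, 6.38. Cox6a1 had 310.8 reads per kb, while Cox6a2 had 0 to 11 reads in any library and did not pass the filter. Cox7b2 and Cox8c had 0 reads in all 24 libraries. Just inside the filter were Cox6b2, with 5 or more reads in 5 control and 7 mutant libraries, and Cox8b, with 7 and 6. Just outside was Cox6a2, with 2 and 2.

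**Figure D2:**
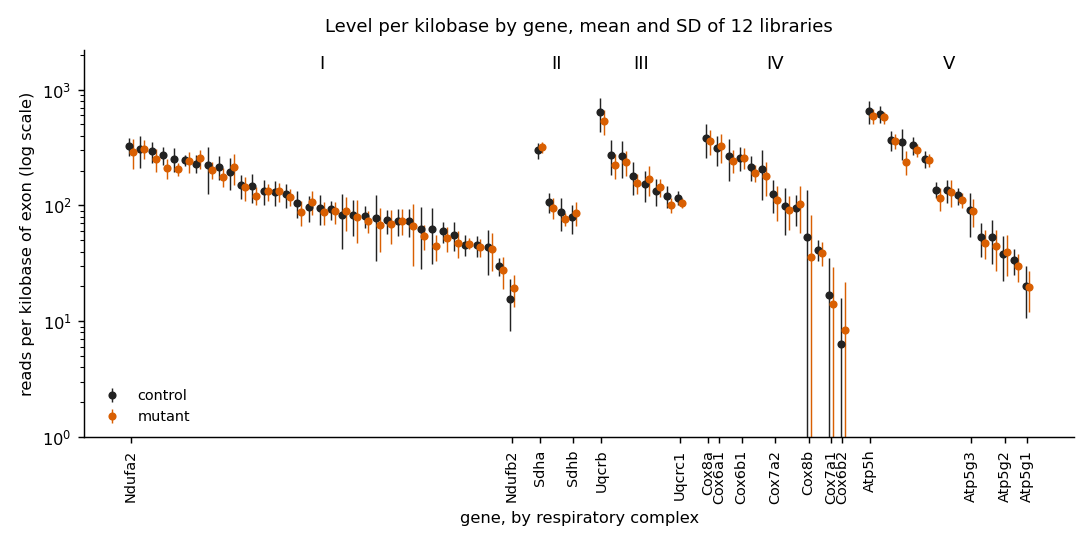
Reads per kilobase of exon (log scale) of 75 genes ordered within complexes I to V, as the mean of 12 control (black) or 12 mutant (orange) libraries with bars of 1 SD, which the axis cuts where they pass below 1. Means run from 6.38 reads per kb for Cox6b2 to 647.2 for Atp5h in controls, and the bars of the genotypes overlap for each gene. Names mark the highest and lowest gene of each complex, the isoform pairs and the c subunit genes.

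The first comparison asked whether loss of Bmal1 in these cells changed the genes. At an adjusted p under 0.05 (edgeR's quasi-likelihood test, Benjamini-Hochberg over all 15493 genes, time point in the model), 0 of 76 members differed between genotypes, and 0.271% of all tested genes did. DESeq2 also called 0. At an unadjusted p under 0.05, 6 members (7.89%) were lower in mutants and 0 higher, where 6.95% of all genes passed in either direction, 3.18% as lower and 3.78% as higher. The 6 were Atp5k and Atp5d of complex V, Ndufa5, Ndufa13 and Ndufs5 of complex I, and Uqcrc2 of complex III.

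Atp5k encodes subunit e of the membrane part of the ATP synthase, which is known to join pairs of the enzyme. Its reads in the control mice were 109 with 276 (ZT2), 181 with 155 (ZT6), 290 with 207 (ZT10), 275 with 148 (ZT14), 273 with 201 (ZT18) and 191 with 294 (ZT22). Those in the mutant mice, in the same order, were 157 with 111, 179 with 162, 89 with 173, 88 with 144, 171 with 186, then 144 with 155. The genotypes overlapped, since the lowest control fell among the mutants, but 8 controls lay above the highest mutant (186). The log2 difference, mutant minus control, was -0.57 (SE 0.17), with an unadjusted p of 0.002071 and an adjusted p of 0.2568 by edgeR's quasi-likelihood test. At ZT6 and ZT18 alone it was -0.17. RefSeq names 4 pseudogenes of Atp5k, and reads shared with them could be assigned either way.

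Ndufa5 encodes an accessory subunit of the complex I arm that reaches into the matrix. It had 215 to 344 reads in controls (median 268) and 159 to 280 in mutants (median 216.5), with overlap. The log2 difference was -0.36 (SE 0.13, adjusted p 0.4667, edgeR). Uqcrc2, a core protein gene of complex III, had 228 to 437 reads in controls (median 313.5) and 200 to 320 in mutants (median 262), a log2 difference of -0.26 (SE 0.11, adjusted p 0.6038, edgeR). At both genes the ranges overlapped.

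On the other side, the complex I genes Ndufb2 (log2 0.33, SE 0.26) and the core subunit gene Ndufs7 (log2 0.17, SE 0.14) had estimates above 0 that did not pass, with adjusted p-values of 0.8661 and 0.8765 by edgeR's quasi-likelihood test. Ndufb2 had 26 to 158 reads in controls and 63 to 156 in mutants, and Ndufs7 had 95 to 227 and 117 to 259, with overlap at both. No member was higher in mutants by this test.

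The median log2 difference of the 76 genes was -0.12, against 0.00 over all tested genes. Estimates were below 0 for 58 members (76.3%) and for 49.4% of all genes. By complex the medians were -0.09 (I), -0.04 (II), -0.17 (III), -0.06 (IV) and -0.12 (V). Without control ZT22 replicate 2, the median was -0.05, with 46 members below 0 and 4 at an unadjusted p under 0.05, among them Atp5k, Ndufa5 and Uqcrc2, which were lower. The medians by complex were then -0.05 (I), 0.01 (II), -0.11 (III), 0.05 (IV) and -0.05 (V), so those of complexes II and IV changed sign. Other lists of genes lay on the same side: -0.13 for cytosolic ribosomal proteins (81 tested, 0 called) and -0.06 for mitochondrial ribosomal proteins (76 tested, 0 called). The 214 protein-coding genes whose longest transcript is under 800 bases had a median of -0.09. They include the short members, so they are not a separate list.

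Marker genes of several cell types lay off 0 between genotypes as well, none of them called at an adjusted p under 0.05 (edgeR's quasi-likelihood test). Their median log2 differences were -0.21 for astrocyte markers (7 of 7 below 0), -0.27 for oligodendrocyte markers (6 of 7), -0.34 for red blood cell markers (5 of 5) and 0.14 for endothelial markers (1 of 10 below 0). The other lists lay nearer 0, at 0.06 for microglia markers (1 of 9 below 0), 0.05 for smooth muscle (2 of 5), 0.03 for pericyte (3 of 7) and -0.08 for neuron markers (5 of 7). Marker sums of the genotypes overlapped, and the part of other cells in the members' median was not tested.

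The bounds on a genotype difference were narrow for most members. The 95% interval lay within a 2-fold change either way for 72 of 76 and within a 1.5-fold change for 59. The other 4 were the low genes Atp5s, Cox6b2, Cox7a1 and Cox8b. The median standard error was 0.149 on the log2 scale, and the smallest was 0.078, of Sdha, which had 976 to 1699 reads in controls and 1071 to 1558 in mutants.

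**Figure D3:**
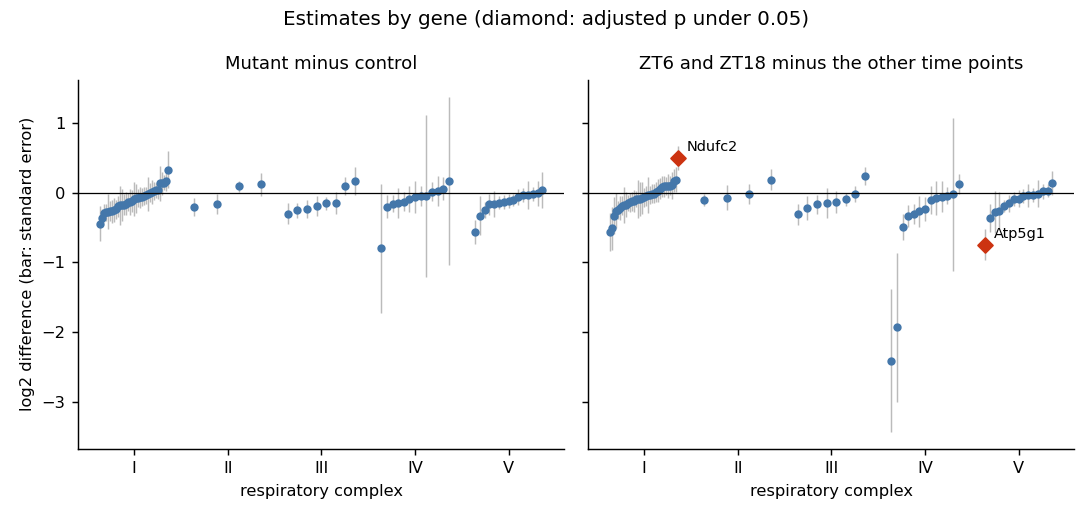
Log2 difference (vertical axis, bars of 1 standard error) of 75 genes ordered within complexes I to V, for mutant minus control (left) and for ZT6 and ZT18 minus the other time points (right), with diamonds for an adjusted p under 0.05. No diamond appears on the left, and on the right Ndufc2 (0.49) and Atp5g1 (-0.75) are marked.

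The second comparison set ZT6 and ZT18 against the other time points. Libraries of these times carry consecutive library numbers and a single i5 index, a library barcode, so time and library series cannot be told apart. Controls at ZT2 and ZT10 carried the same index, and all remaining libraries another, so at ZT2 and ZT10 the index differed between the genotypes. Endothelial marker sums at ZT6 and ZT18 were 105676 to 111087 reads, against 67593 to 98943 at the other times. Microglia markers summed to 1452 to 2589 against 13215 to 35045, astrocyte markers to 4591 to 7553 against 10470 to 20825 and oligodendrocyte markers to 2228 to 4463 against 5222 to 18051, while none of the 9 microglia markers was at 0 in any library. Their part in the values below was not tested.

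By edgeR's quasi-likelihood test, 2 of 76 members (2.63%) differed at an adjusted p under 0.05, against 18.7% of all tested genes. Atp5g1 was lower at ZT6 and ZT18, as were 11.4% of all genes, and Ndufc2 higher, as were 7.21%. At an unadjusted p under 0.05, 9 members (11.8%) passed, against 28.4% of all genes (16% as lower and 12.4% as higher). Lower among them were Cox6c, Cox7b, Cox8a and Cox8b of complex IV, Atp5a1 and Atp5g1 of complex V, Ndufb6 of complex I and Uqcrq of complex III, and Ndufc2 was higher. Without control ZT22 replicate 2 the 9 became 4 (Atp5g1, Cox7b, Ndufc2 and Uqcrb).

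Atp5g1 encodes a precursor of the c subunit, the ring that turns as protons pass. At ZT6 it had 79 and 74 reads in controls and 67 and 43 in mutants, and at ZT18 it had 51 and 72 in controls and 79 and 68 in mutants. At ZT2, ZT10, ZT14 and ZT22 the control mice had 188 with 89, 113 with 73, 70 with 80, then 97 with 210 reads. The mutant mice had 68 with 92, 78 with 141, 98 with 164, then 146 with 115 reads. The ranges overlapped between 68 and 79 reads. The log2 difference was -0.75 (SE 0.22, adjusted p 0.01413, edgeR's quasi-likelihood test), -0.70 within controls and -0.76 within mutants, neither of which passed (adjusted p 0.1667 in controls and 0.1215 in mutants). Adding the i5 index as a covariate gave a log2 difference of -0.99 and an adjusted p of 0.1845. The other c subunit genes were not called, with 19 to 109 reads of Atp5g2 at ZT6 and ZT18 against 23 to 102, and 118 to 207 reads of Atp5g3 against 76 to 415.

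Ndufc2 encodes an accessory subunit of the membrane arm of complex I. At ZT6 it had 150 and 173 reads in controls and 179 and 214 in mutants, and at ZT18 it had 164 and 242 in controls and 259 and 136 in mutants. The other 16 libraries had 72 to 201 reads (median 134), so that the ranges overlapped from 136 to 201 reads. The log2 difference was 0.49 (SE 0.17, adjusted p 0.04307, edgeR's quasi-likelihood test), and the call was lost in 14 of the 24 runs that left out 1 library (adjusted p up to 0.1174). Adding the i5 index gave a log2 difference of 0.75 and an adjusted p of 0.2585.

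By complex, estimates of that contrast were below 0 for 23 of 35 genes of complex I (median -0.07), 3 of 4 of complex II (-0.05), 7 of 8 of complex III (-0.14), 12 of 13 of complex IV (-0.24) and 12 of 15 of complex V (-0.09). Without control ZT22 replicate 2 these were 20 (-0.03), 2 (-0.01), 7 (-0.09), 8 (-0.18) and 9 (-0.03) genes. Within controls 8 of the 13 complex IV genes were below 0 (median -0.16), and within mutants 11 (-0.30). Cox7b, the gene of a small membrane subunit, had 123 to 293 reads at ZT6 and ZT18 (median 184) and 147 to 594 at the other times (median 253), a log2 difference of -0.49 (SE 0.18, adjusted p 0.05717, edgeR). Cox6c, another such gene, had 496 to 1029 reads against 722 to 2160, a difference of -0.30 (SE 0.14, adjusted p 0.1568, edgeR). Both sets of ranges overlapped, and the highest value of each gene came from control ZT22 replicate 2. The exons of Cox6c overlap Vps13b on the opposite strand.

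Cox8b, the muscle form, was too low for a fold change to be read as a bound. The control mice had 4 with 0 reads (ZT2), 2 with 9 (ZT6), 21 with 12 (ZT10), 29 with 3 (ZT14), 27 with 0 (ZT18) and 12 with 109 (ZT22). The mutant mice had 2 with 28, 0 with 0, 8 with 43, 5 with 33, 0 with 1, then 36 with 0 reads, in the same order of times. Within mutants, it was the 1 member called at ZT6 and ZT18 (adjusted p 0.02924 by edgeR's quasi-likelihood test), where 10.7% of all genes were called (7.25% as lower), and within controls 0 members were called, against 9.75% of all genes. Its reads at the other times reached 43 in mutants but were also 0, 2, 5 and 8, so the 2 sets overlapped in each genotype.

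**Figure D4:**
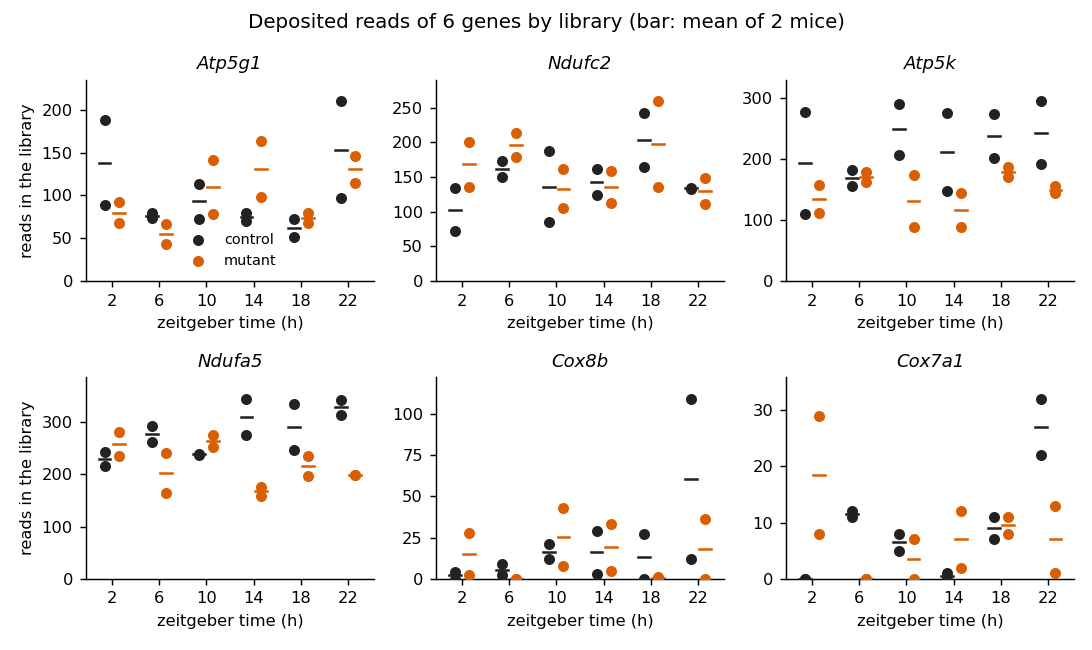
Deposited reads per library against zeitgeber time (h) of Atp5g1, Ndufc2, Atp5k, Ndufa5, Cox8b and Cox7a1, with 1 point per mouse, controls in black, mutants in orange, and a bar at the mean of 2 mice. Atp5g1 stays at 43 to 79 reads at ZT6 and ZT18, and Cox8b runs from 0 to 109 reads, the highest in 1 control mouse at ZT22.

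The median log2 difference of the members between ZT6 and ZT18 and the other times was -0.09, against 0.01 over all genes, with 58 of 76 (76.3%) below 0 and 49.2% of all genes. Without control ZT22 replicate 2 it was -0.05, with 47 below 0 and 3 members called (Atp5g1, Ndufc2 and Uqcrb). The 95% interval lay within a 2-fold change for 69 members.

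The mitochondrially encoded subunits moved otherwise. All 13 were lower at ZT6 and ZT18 by edgeR's quasi-likelihood test at an adjusted p under 0.05, from -1.31 for mt-Co2 to -1.83 for mt-Nd3 (median -1.55, log2). As a share of all reads, they took 0.963% to 1.59% at ZT6 and ZT18 and 2.31% to 7.54% at the other times, with no overlap. The nuclear genes took 0.277% to 0.352% and 0.281% to 0.515%, with overlap. Per 100 reads of the mitochondrially encoded subunits, the 76 nuclear genes had 17.4 to 32.2 reads at ZT6 and ZT18 and 3.92 to 14.6 at the other times. Between genotypes, 0 of the 13 were called, although all 13 estimates were below 0 (median -0.19).

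Subunit genes outside the naming rule gave 2 calls of 11 at ZT6 and ZT18 by edgeR's quasi-likelihood test, a share near the 18.7% of all tested genes called, which also stands behind the counts of the lists that follow. Cyc1, the cytochrome c1 gene of complex III, was lower (log2 -0.65, SE 0.18, adjusted p 0.008718). Cox4i2, the alternative form of complex IV subunit 4 known from lung and vessel wall cells, was higher (0.90, SE 0.31, adjusted p 0.04012), at times when smooth muscle markers summed to 3119 to 7250 reads, against 739 to 4215 (median log2 difference 1.67, 5 of 5 called higher), and pericyte markers to 12461 to 20885, against 8904 to 16300 (0.50, 5 of 7). The part of these cells in the level of Cox4i2 was not tested. Of 47 assembly factors, Coa5 was lower (-0.56) and Foxred1 higher (0.57). Of 16 regulators of mitochondrial biogenesis, the coactivator gene Ppargc1a was lower (-1.37), and Gabpa (0.31) and the DNA polymerase subunit gene Polg2 (0.78) were higher. Exons of Gabpa overlap those of the member Atp5j on the opposite strand.

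Genes of the pathways that feed the chain were counted in the same contrast, in which 18.7% of all tested genes were called. Of 17 tricarboxylic acid cycle genes, 3 were lower at ZT6 and ZT18 (Idh2 -0.63, Idh3a -0.50 and Dlst -0.26) and 0 higher. Of 17 glycolysis genes, 7 were lower, among them the hexokinase gene Hk2 (-3.89) and the lactate dehydrogenase gene Ldhb (-1.66), and 2 were higher, the glucose transporter gene Slc2a1 (0.28) and Ldha (0.27). Between genotypes, 0 genes of these 5 lists were called by the same test.

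Whether the ZT6 and ZT18 difference was of unlike size in the genotypes was tested directly. By edgeR's quasi-likelihood test 0 of 76 members passed the adjusted threshold, as did 0% of all genes, and DESeq2 also called 0 members. At an unadjusted p under 0.05, 5 members (6.58%) passed, against 5.29% of all genes (2.15% as higher and 3.14% as lower). Cox5b, a peripheral complex IV subunit gene, had 261 to 349 reads at ZT6 and ZT18 in controls against 277 to 556, and 261 to 408 in mutants against 241 to 373, a difference of contrasts of 0.57 (SE 0.21, adjusted p 0.8579, edgeR). Ndufs6, a complex I gene, had 50 to 130 reads in controls against 43 to 113, and 26 to 60 in mutants against 63 to 144, a difference of -1.15 (SE 0.46, adjusted p 0.871, edgeR). In mutants the 2 sets of Ndufs6 values did not overlap, in controls they did. The other 3 were Cox7c, Cox7a1 and Cox8b, all lower.

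The last question was whether the members had a daily rhythm. By meta2d, which joins JTK_CYCLE and a Lomb-Scargle periodogram, 0 of 76 members had a q under 0.6 in controls, where 0.31% of all tested genes did, and 0 in mutants, where 0.0387% did. An edgeR cosinor fit also called 0 members in either genotype at an adjusted p under 0.6. At an unadjusted p under 0.05, meta2d passed 0 members in controls, against 2.43% of all genes, and 1 in mutants, against 2.27%. That one was Ndufv1, the gene of the NADH-binding subunit (p 0.03744), whose mean reads in mutants were 312.5, 251, 282.5, 326.5, 381 and 315 from ZT2 to ZT22, and in controls 287.5, 381.5, 306.5, 307, 316 and 364.5.

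With a cosinor fit of both genotypes, 0 members differed in rhythm at an adjusted p under 0.05 (edgeR's quasi-likelihood test, 0% of all genes, and 0 members by DESeq2). At an unadjusted p under 0.05, 2 members passed (2.63%, against 4.26% of all genes), among them Sdhb, the gene of the iron-sulfur subunit of complex II (p 0.03509).

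For any difference between time points, edgeR's quasi-likelihood test called 0 members at an adjusted p under 0.05, against 13.4% of all genes. At an unadjusted p under 0.05 it passed 3 (3.95%), Atp5g1, Atp5o and Cox7b, against 23.7%. Atp5o, which encodes the stalk subunit that binds the head of the ATP synthase, was called by DESeq2. Its control means were 250.5, 233.5, 238.5, 283, 260.5 and 328 reads from ZT2 to ZT22, and its mutant means 224.5, 211, 190.5, 284.5, 292 and 346.5, with the highest mean at ZT22 in both genotypes. It was also the member that passed the unadjusted threshold with ZT2, ZT10, ZT14 and ZT22 alone. One of its overlapping genes lies on the same strand and bears the same symbol in the annotation.

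Control ZT22 replicate 2 stood apart from the other 23 libraries in these genes. Of the 76 members, 36 had their highest value of all 24 libraries there, 70 lay above the median of the others and 40 were more than 1.5-fold above it, with a median of 1.52-fold. Complex IV was highest, with a median of 2.04-fold and a share of 0.0823% of reads against 0.0275% to 0.0516% elsewhere. Complexes III, V, I and II had medians of 1.62-fold, 1.55-fold, 1.37-fold and 1.23-fold.

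These folds were taken after TMM scaling of the libraries. In that library Cox6c had 2160 reads (2.56-fold), Cox7b 594 (2.89-fold), Atp5g1 210 (2.57-fold) and Cox8b 109. The lowest relative value was that of Ndufb3, a membrane arm gene of complex I, with 34 reads (0.67-fold). On the log2 scale, the members' median there was 0.57 above each gene's median, against 0.39 for mitochondrial and 0.17 for cytosolic ribosomal proteins. Length classes were compared over protein-coding genes with more than 50 scaled reads on average. Their median log2 value in that library was lower for longer transcripts, at 0.38 for a longest annotated transcript under 800 bases, 0.12 from 800 to 1500, 0.03 from 1500 to 3000 and -0.04 at 3000 bases and over. The members' medians in the same classes were 1.6-fold (23 genes), 1.53-fold (26), 1.44-fold (20) and 1.79-fold (7). These had no lower limit of reads and were taken against the other libraries only, so the 2 series are not directly comparable. The library also held the second lowest endothelial marker sum of the 24 libraries (69790 reads) and the second highest astrocyte sum (18650), with 30755 microglia marker reads, and its share of mitochondrially encoded subunits was 1.77 times the median of the others. The part of other cells in the members' values there was not tested. Mutant ZT6 replicate 1 lay at the other end, with the lowest value of 16 members and a median of -0.28. Its medians over the length classes of protein-coding genes, from short to long, were -0.28, -0.21, -0.11 and 0.04, so its low values were not limited to the members.

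**Figure D5:**
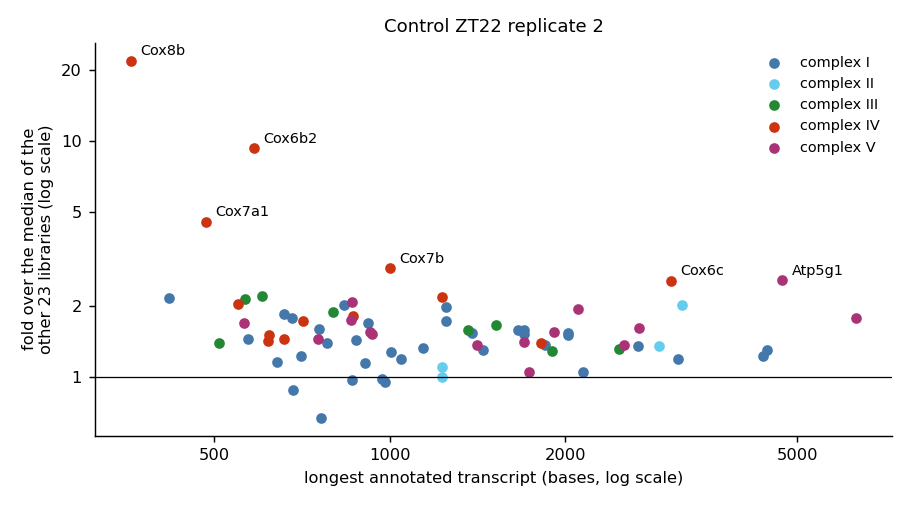
Level of 75 genes in control ZT22 replicate 2 as a fold over the median of the other 23 libraries (log scale), against the length of the longest annotated transcript in bases (log scale), coloured by complex. Most points lie above 1, Cox8b reaches 21.9-fold, and Atp5g1 and Cox6c lie at 2.57-fold and 2.56-fold.

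Between mice of the same genotype and time, members with over 100 reads on average varied by a median SD of 0.353 on the log2 scale (58 genes), against 0.289 for all tested genes with that many reads (7712). The 2 sets were not matched on level. Both values include the control ZT22 pair, in which the members took 0.296% and 0.515% of reads, and none without it is given. Cox5b (0.20) and Ndufa5 (0.20) varied least among all members. Cox6b2 (2.06) and Cox8b (2.04), both near 0 reads in many libraries, varied most.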

How the data were processed

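RNA of CD31-sorted brain endothelial cells was sequenced by the authors with a strand-specific kit, aligned to GRCm38 with STAR 2.5.3a and merged over lanes with SAMtools 1.3.1. The authors counted reads on Ensembl genes and normalized the libraries with PORT. The deposited values are whole-number counts, and every whole number from 1 to 50 occurred in each library, so they were handled as counts. Original depth is not in these values, so that counting error may be larger than they show. Whether counting used strand is not given in the sources used here. Exons of 26 members overlap another gene (23 on the opposite strand), and 9 members have 14 pseudogenes named in RefSeq.

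Genotype, time and replicate came from the labels, and the replicates are separate mice. The members and the gene lists were chosen with earlier results of these data known. The filter was 5 reads in 6 libraries of a genotype. The software was edgeR 4.0.16 under R 4.3.3 (TMM, quasi-likelihood test, Benjamini-Hochberg over all 15493 genes, threshold 0.05). The common dispersion was 0.179, a coefficient of variation of 42.4%. ZT6 and ZT18 were compared with the other times because of their library numbers. Rhythm was tested with meta2d (period 24 h, q under 0.6), for which code was written under Python 3.11.15 (pandas 2.3.3, SciPy 1.17.1, NumPy 2.4.6). Scripts were tested on simulated data. DESeq2 1.42.0, other scalings and filters, a replicate block, the i5 index as a covariate and leaving out each library served as alternatives, and those on ZT2, ZT10, ZT14 and ZT22 alone for time and rhythm, and most on the members' median, were chosen after seeing the data. Lengths and coordinates came from an annotation of GRCm38 that held 53360 of the 53465 listed genes and all 76 members. Members were named by rule: for each test up to 5 past the threshold in each direction or else the 3 with the smallest p-values, the highest and lowest level per kb of each complex, the isoform pairs, the c subunit genes, those nearest the filter, and up to 4 called genes of other lists. Members given for control ZT22 replicate 2, for their spread, and Cox7b and Cox6c at ZT6 and ZT18, were chosen after their values were seen. One member that the rule would name is not reported here. Plots were drawn with matplotlib 3.10.9. None of the 12 pairs of mice of the same genotype and time agreed within sampling noise.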

Additional observations from a re-analysis of the deposited data

How the results depend on the processing

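The count of 0 members called between genotypes held under every alternative run. At ZT6 and ZT18 the 2 calls became 5 with no filter beyond 1 read, 4 with DESeq2, 0 with the i5 covariate, 0 in controls alone and 1 in mutants alone, and 1 to 3 when 1 library was left out. Atp5g1 kept its call in all 24 of those runs, and Ndufc2 in the other 10. Ndufc2 also lost it with 10 or more reads in every library (adjusted p 0.06481, edgeR). With the i5 covariate both genes kept their direction, at log2 differences of -0.99 (Atp5g1) and 0.75 (Ndufc2). Every library of ZT6 and ZT18 carried the same index, so that run can hardly separate index from time. Calls lost in it do not show that they came from the index. For any difference between time points, the 0 calls became 4 with no filter and 1 with DESeq2, and stayed at 0 when 1 library was left out. For rhythm in controls it was 0 to 1 (Ndufv3, without control ZT22 replicate 1), for rhythm in mutants and for both differences between genotypes 0 to 0. The median genotype difference ran from -0.1571 to -0.05245 and that of ZT6 and ZT18 from -0.1094 to -0.04629 when 1 library was left out, the ends nearest 0 without control ZT22 replicate 2. Counts at an unadjusted p under 0.05 ran from 4 (without control ZT6 replicate 2, control ZT22 replicate 2 or mutant ZT2 replicate 2) to 10 (without control ZT18 replicate 1 or control ZT22 replicate 1) between genotypes. At ZT6 and ZT18 they ran from 4 (without control ZT22 replicate 2 or mutant ZT14 replicate 2) to 10 (without control ZT10 replicate 1, control ZT14 replicate 2 or control ZT22 replicate 1). For the difference of contrasts between genotypes these counts ran from 3 to 8. They ran from 1 to 5 both for any difference between time points and for the difference in rhythm. For rhythm they ran from 0 to 2 in controls and from 0 to 3 in mutants. The median level per kb was 177.5 by the longest transcript. The cause of these shifts was not tested. Shares of all tested genes called are not given for the alternative runs, so their counts do not set the members apart from other genes. Same-numbered mice of the genotypes did not deviate together (correlations of -0.009 to 0.015 over the 6 times), so the numbers pair nothing. With the replicate block, 0 members were called between genotypes and 3 at ZT6 and ZT18 (Atp5g1, Cox7b and Ndufc2). The i5 index was not run as a covariate for the difference of contrasts between genotypes. Among the counts of calls, the medians over all 76 members and the named genes, no result reversed in these runs. Without control ZT22 replicate 2, the genotype medians of complex II (-0.04 to 0.01) and complex IV (-0.06 to 0.05) changed sign. With 2 mice per genotype and time and deposited totals of 6136404 to 6648311 reads, 28 of 76 intervals for a difference of contrasts reached a 2-fold change, and Atp5s, Cox6b2, Cox7a1 and Cox8b were too low to bound a genotype difference.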
